A study of Avicennia schaueriana with 18 samples.

Results

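The secondary wall cellulose synthases of the mangrove Avicennia schaueriana were represented by 3 assembled transcripts, As_17083 (similar to Arabidopsis CESA4, also named IRX5), As_12790 (similar to CESA8, also named IRX1) and As_14056 (similar to IRX3, also named CESA7), out of 49490 transcripts in the count table. They were chosen by the study as transcripts with higher expression in equatorial than in subtropical leaves, so their site difference in leaves is given below as a description. The libraries came from leaf, stem and flower RNA of adult flowering trees growing wild and sampled in the field. Each group held 3 trees, Eq4, Eq5 and Eq6 at the equatorial site (latitude 0.64 to 0.65 degrees S) and St1, St2 and St4 at the subtropical site (28.36 to 28.48 degrees S). With 1 library for each tree and tissue there were 18 libraries in 6 groups, namely equatorial leaf, stem and flower and subtropical leaf, stem and flower. No tree was treated. At sampling the equatorial trees stood at 28.3 to 30.1 °C and 47 to 51% relative humidity and the subtropical trees at 18.3 to 20.9 °C and 82 to 86%, so that site, weather and the origin of the trees cannot be told apart.

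Cellulose is made at the plasma membrane by rosette-shaped complexes of cellulose synthase (CESA) proteins. In Arabidopsis, primary walls of growing cells are made by CESA1, CESA3 and CESA6-type proteins, while the thick secondary walls of xylem vessels and fibres need CESA4, CESA7 and CESA8 together. Loss of any of the 3 gives collapsed xylem vessels, from which the irregular xylem (IRX) names come. In stems of Arabidopsis and of trees their transcripts are known mainly from developing xylem and fibres.

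The depth was 9894226 to 15802680 counts per library in stems, 5055480 to 11172632 in flowers and 8749713 to 14313994 in leaves. Levels are given as CPM, counts per 1000000 on library sizes scaled by TMM, a factor that corrects for composition. They were not compared between transcripts, since the transcript lengths were not used here. Results rested in several places on 2 libraries that stood apart. The Eq6 stem was far above the other stems for the cellulose synthases, as described below. The Eq6 flower counted 53 of 65 transcripts found in all 6 subtropical and no equatorial leaf or stem library, against 3 each in the Eq4 and Eq5 flowers and 48 to 59 in subtropical flowers, and is therefore called the library labelled Eq6 flower. The Eq6 stem counted 0 of the 65. The 6 transcripts used as green tissue markers, all of the photosynthetic apparatus, summed to 204 to 889 CPM in leaves, 88.1 to 278 in stems and 18.8 to 108 in flowers, where 1 of the 6 was at 0 in 1 library.

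All 3 cellulose synthase transcripts were highest in stems, intermediate in flowers and lowest in leaves. The median over 6 trees of As_17083 was 85.9 CPM in stems, 23.2 in flowers and 2.77 in leaves. For As_12790 it was 67.9, 20.3 and 3.70 CPM, and for As_14056 57.3, 28.5 and 2.37 CPM. The order of the medians was the same for the 3, but single trees departed from it, and the levels of individual libraries follow.

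In stems, As_17083, the CESA4 transcript, stood at 33.8, 79.2 and 660 CPM in Eq4, Eq5 and Eq6 and at 145, 49.0 and 92.7 CPM in St1, St2 and St4. As_12790, the CESA8 transcript, stood at 30.0, 50.9 and 549 CPM in the equatorial stems and at 137, 52.4 and 83.4 CPM in the subtropical stems. As_14056, the CESA7 transcript, stood at 23.4, 55.0 and 471 CPM in the equatorial and at 86.5, 39.3 and 59.6 CPM in the subtropical stems. Eq4 was the lowest stem and Eq6 the highest for each of them, followed from above by St1 and St4, and the subtropical stems lay inside the equatorial range. The Eq6 stem rested on 11613, 9660 and 8300 counts, and the 95% Poisson interval of its As_17083 level, which covers counting error only, was 648 to 672 CPM.

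In flowers the 3 transcripts covered a narrower range. As_17083 was at 46.0, 24.0 and 20.03 CPM in Eq4, Eq5 and the library labelled Eq6 flower and at 22.4, 36.7 and 17.9 CPM in St1, St2 and St4. As_12790 was at 43.5, 19.0 and 13.8 CPM in the equatorial and at 21.7, 42.7 and 11.1 CPM in the subtropical flowers. As_14056 was at 50.3, 32.7 and 16.5 CPM in the equatorial and at 24.3, 46.3 and 19.96 CPM in the subtropical flowers. Eq4 and St2 were the 2 highest flowers for each transcript, and these 2 trees were among the 3 lowest stems for each. From the lowest to the highest library the levels spanned 2.58-, 3.91- and 3.05-fold in flowers, against 19.5-, 18.3- and 20.1-fold in stems.

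Leaves stood at 2 levels. As_17083 stood at 21.1, 3.03 and 23.6 CPM in Eq4, Eq5 and Eq6 and at 2.29, 2.52 and 1.88 CPM in St1, St2 and St4. As_12790 stood at 15.4, 3.86 and 20.2 CPM in the equatorial and at 3.54, 2.42 and 1.65 CPM in the subtropical leaves. As_14056 stood at 12.5, 2.34 and 16.3 CPM in the equatorial and at 2.40, 2.13 and 1.65 CPM in the subtropical leaves. Eq4 and Eq6 carried the high leaf values, while the Eq5 leaf was close to the subtropical leaves and below the St1 leaf for As_14056. The low leaves rested on 14 to 31 counts per transcript, for example 16 counts of As_17083 in St4 with a 95% Poisson interval of 1.08 to 3.05 CPM. The log2 differences, subtropical minus equatorial, were -2.84, -2.38 and -2.34 for As_17083, As_12790 and As_14056. These are the values that selected the transcripts and no test is attached to them.

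**Figure D1:**
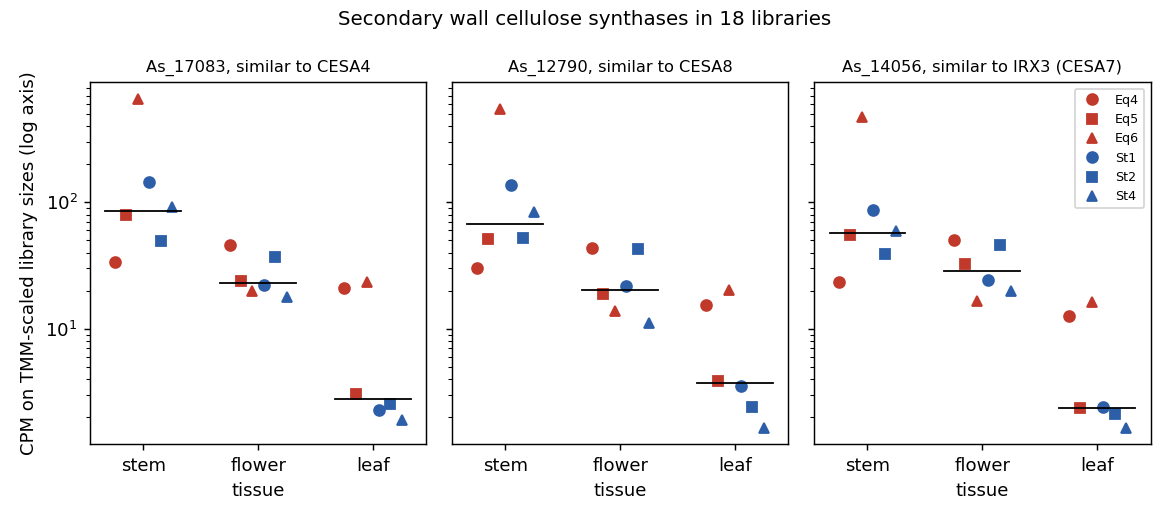
CPM (log axis) of As_17083, As_12790 and As_14056 in stems, flowers and leaves of 6 trees, 1 point a library (equatorial trees red, subtropical trees blue), with the median of 6 libraries as a bar. The Eq6 stem stands at 660, 549 and 471 CPM, and in leaves Eq4 and Eq6 lie above the other 4 trees.

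The first comparison asked whether stems differed from flowers, tissues that the study's choice on leaves did not use. The transcripts were taken up here with earlier results of these data known, so the comparison is not free of selection. As_17083 was 5.68-fold higher in stems (log2 fold change 2.51 ± 0.62 SE, adjusted p = 0.00481). As_12790 was 5.51-fold higher (2.46 ± 0.64, adjusted p = 0.00687) and As_14056 3.38-fold higher (1.76 ± 0.60, adjusted p = 0.0294), by edgeR's quasi-likelihood test over 18 libraries, averaged over the sites, with Benjamini-Hochberg adjustment over all transcripts. So 3 of 3 passed, against 18.2% of the 37761 transcripts tested that were called higher in stems. A change in the number of cells that make secondary walls and a change in RNA per cell cannot be told apart in such tissue samples.

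The size of this difference varied widely between trees. Within the equatorial trees Eq4, Eq5 and Eq6 the stem to flower ratio was 0.735, 3.30 and 32.9 for As_17083, 0.690, 2.69 and 39.8 for As_12790 and 0.466, 1.68 and 28.6 for As_14056. The Eq6 value sets the Eq6 stem against the library labelled Eq6 flower and may not lie within 1 tree. Within the subtropical trees St1, St2 and St4 it was 6.50, 1.34 and 5.19 for As_17083, 6.32, 1.23 and 7.50 for As_12790 and 3.56, 0.848 and 2.99 for As_14056. The Eq4 stem was thus below the Eq4 flower for all 3 and the St2 stem was below the St2 flower for As_14056, and stem and flower libraries overlapped for each transcript, while 8.46% of all transcripts tested had every stem above every flower.

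Leaving out the Eq6 stem lowered the log2 fold changes to 1.38 (adjusted p = 0.0255) for As_17083 and 1.24 (adjusted p = 0.0456) for As_12790, and the call of As_14056 was lost at 0.61 (adjusted p = 0.294). With all 3 libraries of tree Eq6 left out, only As_17083 passed, at 1.27 (adjusted p = 0.0471), and As_12790 and As_14056 stood at 1.09 and 0.45 (adjusted p = 0.0781 and 0.425). Without tree St1, As_12790 stood at 2.19 (adjusted p = 0.0526) and As_14056 at 1.52 (adjusted p = 0.142). As_14056 also lost its call without St2 (2.10, adjusted p = 0.0501), without St4 (1.61, adjusted p = 0.129), without the library labelled Eq6 flower (1.55, adjusted p = 0.0738) and with the tree as a block (1.31, adjusted p = 0.102). The stem to flower difference of the CESA7 transcript passed the test in 8 of 17 alternatives, that of the CESA8 transcript in 14 of 17 and that of the CESA4 transcript in 16 of 17.

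Within each site, the equatorial trees alone gave log2 fold changes of 3.11, 3.06 and 2.47 (adjusted p = 0.0221, 0.0289 and 0.0533), so that As_17083 and As_12790 passed, against 9.23% of all transcripts. These values hold the Eq6 stem and the library labelled Eq6 flower, while the Eq4 stem was below the Eq4 flower for each transcript. The subtropical trees alone gave 1.90, 1.86 and 1.04 (adjusted p = 0.129, 0.153 and 0.410), and none passed, against 9.43% of all transcripts. The test of the difference between the sites follows below.

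Stems stood further above leaves than above flowers, and each of the 3 transcripts passed this test in 17 of 17 alternatives. As_17083 was 26.2-fold higher in stems than in leaves (log2 fold change 4.71 ± 0.69 SE, adjusted p = 8.03e-05). As_12790 was higher by 4.57 ± 0.72 on the log2 scale (adjusted p = 0.000135) and As_14056 by 4.51 ± 0.68 (adjusted p = 0.000102). All 3 passed, against 18.3% of transcripts called higher in stems, and the lowest stem lay above the highest leaf for each of the 3, against 9.77% of all transcripts tested. This comparison uses the same leaf libraries in which the transcripts were chosen, although it averages over the sites.

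Per tree, the stem to leaf ratio was smallest in Eq4, at 1.603, 1.95 and 1.87 for As_17083, As_12790 and As_14056. In the other 5 trees it was 19.5 to 63.5 for As_17083, 13.2 to 50.7 for As_12790 and 18.4 to 36.2 for As_14056. Without the Eq6 stem the log2 fold changes were 3.62, 3.39 and 3.40 (adjusted p = 6.23e-05, 0.000117 and 7.74e-05). The equatorial trees alone and the subtropical trees alone each called 3 of 3, against 12.2% and 10.5% of all transcripts. The choice favoured high equatorial and low subtropical leaves, so the calls within a site are not independent of it.

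Flowers were also above leaves. The log2 fold change was 2.20 ± 0.64 SE for As_17083 (adjusted p = 0.00987), 2.11 ± 0.66 for As_12790 (adjusted p = 0.0155) and 2.76 ± 0.65 for As_14056 (adjusted p = 0.00243), so 3 of 3 passed, against 25.5% of transcripts called higher in flowers. As with stems, the leaf libraries are those of the choice. Every flower was above every leaf for As_14056 but not for As_17083 and As_12790, against 13.8% of all transcripts tested. The library labelled Eq6 flower stood to the Eq6 leaf at a ratio of 0.850, 0.682 and 1.01, which may not be a ratio within 1 tree, and in the other 5 trees it ran from 2.18 to 21.7 over the 3 transcripts.

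By site, the flower to leaf values were as follows. In equatorial trees alone they were 0.90, 0.92 and 1.65 (adjusted p = 0.448, 0.456 and 0.156) and none passed, against 17.9% of transcripts. In subtropical trees alone they were 3.51, 3.30 and 3.86 and 3 of 3 passed, against 17.0% of transcripts. The choice favoured high equatorial and low subtropical leaves, which can lower the equatorial values here and raise the subtropical values. The size of such an effect was not tested. The equatorial values also hold the library labelled Eq6 flower. Neither set of calls is thus independent of the choice. The difference between the sets holds the leaf contrast that chose the transcripts and was not tested. Without tree St2 As_12790 lost its call (1.79, adjusted p = 0.0891).

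**Figure D2:**
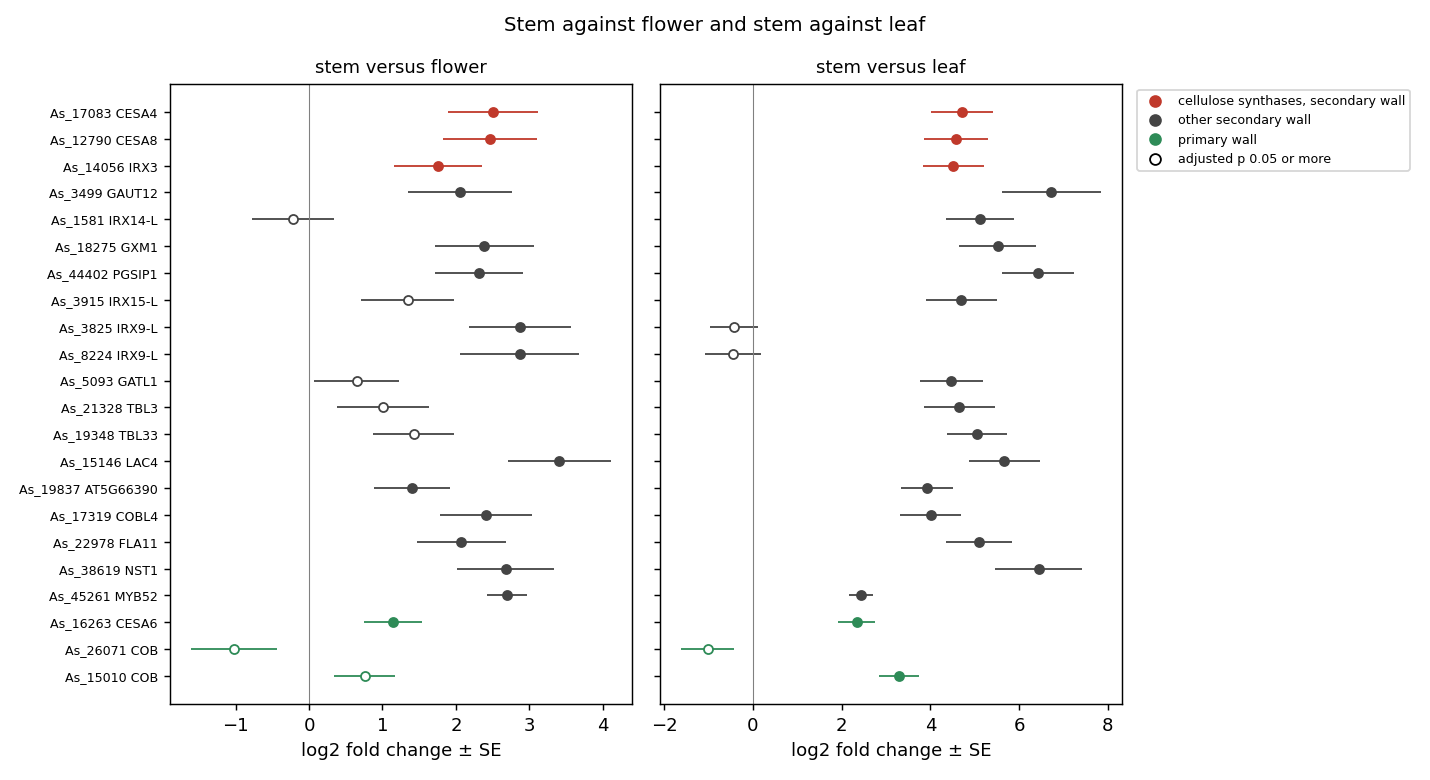
Log2 fold change ± SE of the 3 cellulose synthases, 16 other secondary wall transcripts and 3 primary wall transcripts, for stem versus flower (left) and stem versus leaf (right), from 18 libraries; open symbols have an adjusted p of 0.05 or more. The 3 cellulose synthases lie at 1.76 to 2.51 on the left and at 4.51 to 4.71 on the right.

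Site was compared within stems and within flowers, which the study's choice of the transcripts on leaves did not use. They were taken up here with earlier results of these data known. In stems the log2 fold change, subtropical minus equatorial, was -1.40 ± 0.998 SE for As_17083 (adjusted p = 0.715), -1.17 ± 1.01 for As_12790 (0.763) and -1.53 ± 0.99 for As_14056 (0.688), by edgeR's quasi-likelihood test on 6 stem libraries with adjusted p over all transcripts. None passed, against 0.228% of the 34269 transcripts tested, or 78 calls, where edgeR's exact test gave 571 and DESeq2 690. The sign turned without tree Eq6, when the values were 0.75, 1.16 and 0.65 (adjusted p = 0.665, 0.432 and 0.668). The biological coefficient of variation, the spread between libraries of a group beyond counting, was 0.78 to 0.80 for the 3 transcripts in stems and 0.402 over all transcripts.

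In flowers the values were -0.20 ± 0.40 SE for As_17083 (adjusted p = 0.945), 0.02 ± 0.57 for As_12790 (0.996) and -0.10 ± 0.46 for As_14056 (0.982). Of 29232 transcripts tested 0% were called by the quasi-likelihood test, with 1654 at an unadjusted p under 0.05, and edgeR's exact test called 6 and DESeq2 39. Without the library labelled Eq6 flower, 573 transcripts were called and none of the 3, and As_12790 stood at -0.29 (adjusted p = 0.853). The site effect in stems minus that in flowers was -1.21 ± 1.18 for As_17083, -1.20 ± 1.23 for As_12790 and -1.44 ± 1.17 for As_14056 (adjusted p = 0.999972 for each), with 2 transcripts called in all. Without tree Eq6 these values turned to 1.19, 1.46 and 1.09.

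The 3 transcripts varied together between trees. In stems, Pearson's r of log2 CPM over 6 trees was 0.987 for As_17083 and As_12790 (Spearman's rho 0.943), 0.995 for As_17083 and As_14056 (rho 1) and 0.984 for As_12790 and As_14056 (rho 0.943). The exact permutation p of r, adjusted over 6 relations in stems and flowers, was 0.00556 for each pair, and that of rho was 0.0200, 0.0167 and 0.0200. Without Eq4 and Eq6, the 2 trees farthest from the median, r was 0.888, 0.998 and 0.890 over 4 trees. The relation in stems thus kept its sign but not its size for both pairs with As_12790.

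In flowers the coefficients were lower. Pearson's r was 0.962 for As_17083 and As_12790 (rho 0.943), 0.932 for As_17083 and As_14056 (rho 0.943) and 0.924 for As_12790 and As_14056 (rho 0.886). The adjusted exact permutation p of r was 0.00625, 0.00833 and 0.0208, and that of rho 0.0200, 0.0200 and 0.0333. Without Eq4 and St2, the farthest trees, r was 0.914, 0.791 and 0.668 over 4 trees. In leaves Eq4 and Eq6 form a cluster of their own, and no coefficient is given. The libraries of a tissue share their method of scaling, and the 3 transcripts of a library share its depth.

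**Figure D3:**
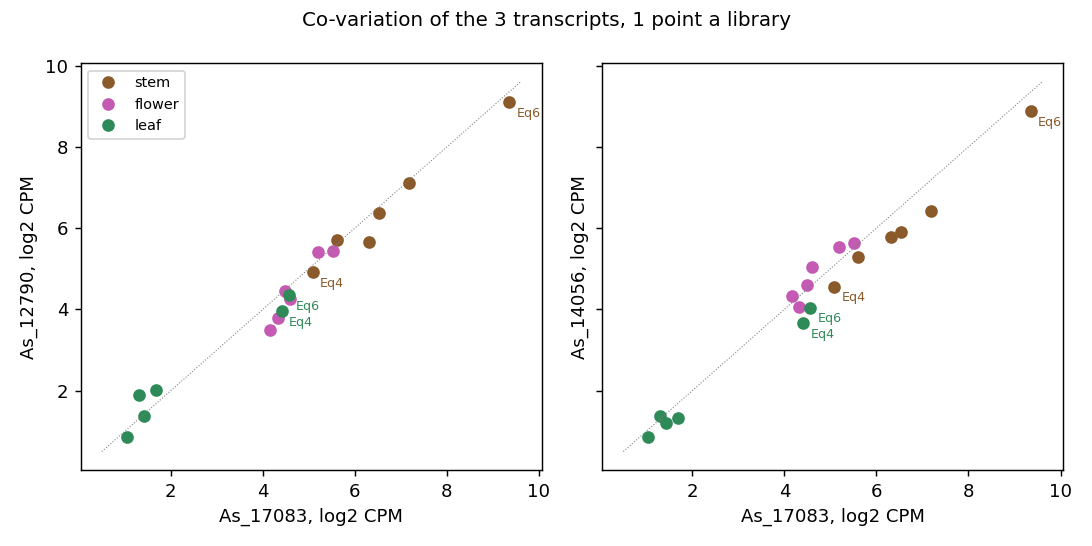
Log2 CPM of As_12790 (left) and As_14056 (right) against As_17083, 1 point for each of 18 libraries, coloured by tissue; the dotted line marks equal values and the Eq4 and Eq6 stems and leaves are named. In the right panel all 6 stems lie under the line and 5 of 6 flowers above it, at mean log2 ratios of As_17083 over As_14056 of 0.54 in stems and -0.15 in flowers.

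The proportions of the 3 transcripts within a library, which need no scaling, had closer means in stems and leaves than in flowers for both ratios with As_14056. As_17083 stood to As_14056 at a mean log2 ratio of counts of 0.54 ± 0.14 (SD, n = 6) in stems, -0.15 ± 0.25 in flowers and 0.33 ± 0.29 in leaves. As_12790 stood to As_14056 at 0.34 ± 0.27, -0.40 ± 0.33 and 0.34 ± 0.25. As_17083 stood to As_12790 at 0.20 ± 0.25, 0.24 ± 0.34 and -0.01 ± 0.40. Relative to the CESA7 transcript, both others had their lowest mean in flowers, and every stem ratio of As_17083 to As_14056, from 1.25 to 1.68, lay above every flower ratio, from 0.735 to 1.21. By site, the trees did not overlap in 3 of the 9 ratio and tissue pairs, which were not tested for site. With so few trees some separation arises by chance, and the ratios within a tissue depend on each other. For levels in stems, 7.69% of all transcripts tested had every equatorial library above every subtropical library and 7.94% the reverse. In leaves these shares were 8.67% and 9.44%. The site means of the ratios are thus a description only. In stems the mean log2 ratio of As_17083 over As_12790 was 0.36 in equatorial and 0.05 in subtropical trees, and that of As_12790 over As_14056 was 0.15 and 0.52. In leaves, where the transcripts were chosen, As_17083 over As_14056 was at 0.55 and 0.12.

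The difference of ratios was taken within each tree, with the library labelled Eq6 flower as that of Eq6. As_17083 over As_14056 was 1.62 times higher in stems than in flowers (0.69 ± 0.27 on the log2 scale, SD, positive in 6 of 6 trees). As_12790 over As_14056 was 1.66 times higher (0.73 ± 0.32, positive in 6 of 6 trees). Flowers minus leaves, these log2 ratios differed by -0.48 ± 0.33 and -0.74 ± 0.41, negative in 6 of 6 trees each. All 4 had an exact two-sided sign-flip permutation p of 0.03125, the smallest that 6 trees allow, and an adjusted p of 0.0703 over 9 ratio and tissue pairs, so none passed at 0.05. The other 5 had adjusted p of 0.394 to 1. The SD between trees in stems and flowers, 0.14 to 0.34, was above the counting SD of 0.066 to 0.15, while in leaves the 2 were alike (0.25 to 0.40 against 0.37 to 0.39).

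**Figure D4:**
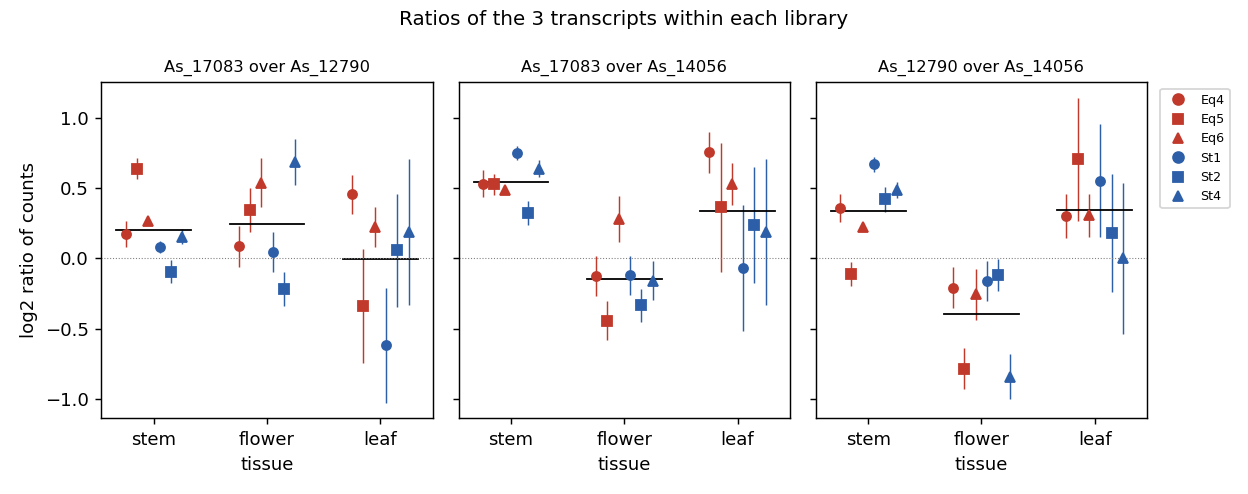
Log2 ratio of counts for each pair of the 3 transcripts in stems, flowers and leaves of 6 trees, with error bars of 1 counting SD and a bar at the mean of 6 trees. For As_17083 over As_14056 the stems lie at 0.32 to 0.75 and the flowers at -0.44 to 0.28.

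The other transcripts of secondary walls were read from 16 that the study listed for cell wall synthesis, of which 15 were also selected on leaves and MYB52 on stems, so their site difference is no independent evidence. In Arabidopsis their products make xylan (GAUT12, IRX14-L, GXM1, PGSIP1, IRX15-L, IRX9-L, GATL1, TBL3 and TBL33), polymerise lignin (LAC4 and the peroxidase AT5G66390), serve wall deposition (COBL4 and FLA11) or switch the programme on (NST1) or modulate it (MYB52). Of these 16, 11 were called higher in stems than in flowers and 0 lower, against 18.2% of all transcripts called higher, with a median log2 fold change of 2.20 against 0.09 over all transcripts tested. LAC4 (As_15146) had the highest value, 3.41 ± 0.70 (adjusted p = 0.00132), and IRX14-L (As_1581) the lowest, -0.22 ± 0.56 (adjusted p = 0.789). Without the Eq6 stem 7 of 16 were called higher, against 14.3% of all transcripts, and without tree Eq6 5 of 16, against 16.6%. In both of these IRX14-L was called lower in stems.

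Against leaves 14 of 16 were called higher in stems, against 18.3% of all transcripts (median 4.87 against 0.04). Comparisons with leaves use the same leaf libraries in which all of the 16 except MYB52 were chosen, although they average over the sites. Their calls are thus not independent of the choice. GAUT12 (As_3499) had the highest value in stems against leaves, 6.73 ± 1.11 (adjusted p = 0.00033), followed by NST1 (As_38619, 6.44 ± 0.98) and PGSIP1 (As_44402, 6.42 ± 0.82). In subtropical leaves GAUT12 and NST1 were at 0 CPM in every library and PGSIP1 had a median of 0. The size and order of these values thus depend on leaves at the floor. With the equatorial trees alone GAUT12 stood at 3.72 and PGSIP1 at 5.11, where As_17083 stood at 4.01. The 2 exceptions were both similar to IRX9-L, As_3825 at -0.43 ± 0.55 (adjusted p = 0.616) and As_8224 at -0.45 ± 0.64 (adjusted p = 0.657). They reached at most 1.82 CPM in a stem, and in flowers both were called lower than in leaves, at -3.30 and -3.31, whereas 12 of 16 were called higher, against 25.5% of all transcripts (median 3.24 against 0.01). The summed CPM of the 16 in stems ran from 204 in Eq4 to 2843 in Eq6, as did that of the 3 cellulose synthases, from 87.2 to 1680.

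Of the primary wall transcripts, the cellulose synthase CESA6 (As_16263) was called higher in stems than in flowers (1.15 ± 0.40, adjusted p = 0.0327) and than in leaves (2.34 ± 0.42, adjusted p = 0.00041). COB (As_15010), a wall protein of growing cells, was at 0.76 ± 0.41 against flowers (adjusted p = 0.168) and was called higher against leaves at 3.29 ± 0.45. The other COB transcript, As_26071, was at -1.02 in both (adjusted p = 0.189 and 0.217) and reached at most 1.82 CPM in a stem. The median of these 3 was 0.76 against flowers and 2.34 against leaves, below the medians of the secondary wall cellulose synthases of 2.46 and 4.57, and the difference between the groups was not tested.

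The Eq6 stem was followed through the lists. It exceeded the next stem, St1, by 4.54-, 3.99- and 5.45-fold for As_17083, As_12790 and As_14056 and the median of the other 5 stems by 8.33-, 10.5- and 8.57-fold. It was also the highest stem for 15 of the 16 other secondary wall transcripts, and more than 2-fold above every other stem for 13 of them. The same library was the highest stem for 3 of 3 primary wall transcripts, more than 2-fold above every other for 2 of them, COB (As_15010) and As_26071, and 1.23-fold above the next stem for CESA6 (As_16263). As_26071 was near the floor, at 1.82 CPM on 32 counts in the Eq6 stem and at most 0.536 CPM in the others. Over all transcripts tested the Eq6 stem was the highest stem for 22.4% and more than 2-fold above every other for 3.37%. For the 4 reference transcripts of the study its level was 1.10 times the median of the other stems, and for 6 green tissue markers 0.764 times, as medians. All 6 green markers had a positive sign for site in stems, subtropical minus equatorial (median log2 fold change 0.65), and none passed. Their sum in the Eq6 stem, 142 CPM, lay between those of the Eq5 stem, 88.1 CPM, and the Eq4 stem, 206 CPM. The xylem content of the stem pieces was not tested.

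In stems none of the 16 passed the test of site. The median was -1.41 against -0.02 over all transcripts, and all 16 had a negative sign, against 17697 of the 34269 transcripts tested. These signs are not independent evidence. MYB52 was chosen on stems, the others were chosen on leaves of the same trees, and all share the Eq6 stem. Without tree Eq6 the sign turned for 13 of the 16, MYB52 not among them, where 18876 of 36104 transcripts tested were positive. The median was then 0.58 against 0.03 over all transcripts, and again none passed. In flowers none of the 14 tested passed (median -0.18 against 0.01).

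**Figure D5:**
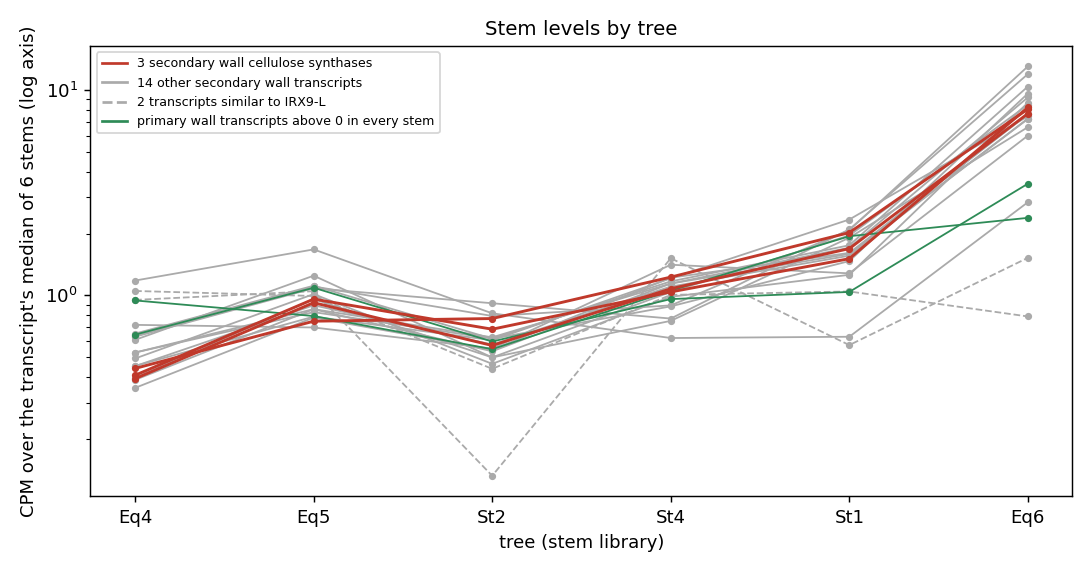
Stem CPM of each transcript over its median of 6 stems (log axis), by tree; the 3 secondary wall cellulose synthases (red), 14 other secondary wall transcripts (grey), 2 transcripts similar to IRX9-L (dashed) and 2 primary wall transcripts above 0 in every stem (green). The red lines run lowest in Eq4 and highest in Eq6, where the 3 reach 4.54-, 3.99- and 5.45-fold over the next stem, and the dashed lines do not follow them.

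Profiles over the 18 libraries were ranked by Pearson's r with the mean log2 CPM of the 3 transcripts, among 37758 others. The 5 most alike were As_11844 (r = 0.987), GAUT12 (As_3499, r = 0.985), FLA11 (As_22978, r = 0.985), As_20592 (similar to the aquaporin PIP1;4, r = 0.981) and As_20240 (r = 0.981), where As_11844 and As_20240 have no name in the sources used here. The points share tissues, so a high r partly records that all are high in stems. They also include the leaves on which the 3 and the 16 listed secondary wall transcripts, except MYB52, were chosen. The likeness of those transcripts over the 18 libraries is thus partly fixed in advance. In all, 42 transcripts had r of at least 0.95, and 12 of the 16 secondary wall transcripts were among the 100 most alike, 8 over the 12 stem and flower libraries alone. As_11844 stood first in that ranking too, at r = 0.996. As_20592 fell furthest of the 5, to rank 18 there and to rank 88 by Spearman's rho over the 18 libraries.

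The levels of these transcripts are given as a description, since the ranking chose them for their pattern. As_11844 ran from 41.3 to 576 CPM in stems, 19.0 to 56.9 in flowers and 3.76 to 20.1 in leaves, with the highest value in the Eq6 stem. The aquaporin As_20592 ran from 10.0 to 236 CPM in stems, 6.83 to 19.1 in flowers and 0.588 to 11.0 in leaves. Among the 3 themselves, each was ranked by likeness to each other one among 37760 transcripts. Over the 18 libraries, which include the leaves in which they were chosen, As_12790 ranked 1 (r = 0.989) and As_14056 2 (r = 0.986) for As_17083. As_17083 ranked 2 and As_14056 4 for As_12790 (r = 0.989 and 0.978), and As_17083 ranked 1 and As_12790 10 for As_14056. Over the 12 stem and flower libraries alone the ranks were lower, at 4 and 17 for As_17083, 3 and 14 for As_12790 and 9 and 13 for As_14056, with r of 0.961 to 0.984.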

How the data were processed

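The authors assembled a transcriptome from paired-end reads (TruSeq RNA libraries), mapped reads to it with Bowtie 0.12.2 and deposited raw counts of uniquely mapped reads per transcript, which leave out reads shared by close copies, so a family such as the cellulose synthases could lose reads. All 18 single-sample files equalled their column of the deposited table. Transcript names are the study's Arabidopsis matches.

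Counts were tested with edgeR 4.0.16 (glmQLFit, glmQLFTest; limma 3.58.1, R 4.3.3), TMM scaling, the filterByExpr filter by group, and adjusted p (Benjamini-Hochberg) over all transcripts, at 0.05. Tissue comparisons used 18 libraries in 6 groups and site comparisons the 6 libraries of a tissue. The SE is the log2 fold change over the root of F. Log2 CPM used a prior count of 2, and ratios added 0.5 to each count. The members and lists were chosen with earlier results of these data known. The named transcripts are the 3 members, 16 secondary and 3 primary wall transcripts, 6 green tissue markers, the study's 4 reference transcripts and the 5 profiles most alike. Alternatives were DESeq2 1.42.0, RLE scaling, other filters, the exact test, reference scaling, fewer libraries, single sites, leaving out trees or Eq6 libraries, and the tree as a block.

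Same-numbered libraries are paired because they come from 1 tree, by the labels. Their deviations from the group means correlated at 0.016 to 0.273 between stems and flowers, -0.021 to 0.403 between stems and leaves and 0.061 to 0.315 between flowers and leaves. No pair of libraries agreed within sampling noise (lowest chi-square per transcript 19.1). On simulated counts 100 transcripts were changed 4-fold and 100 were changed 8-fold, at a spread of 1 size for all transcripts. The stem versus flower test on 35478 transcripts called 99% and 100% of them. The site test in stems on 34602 transcripts called 69% and 99%. For the secondary wall cellulose synthases the biological coefficient of variation was 0.78 to 0.80 in stems, against 0.402 over all transcripts. In the fit of all libraries it was 0.68 to 0.71, against 0.42. Recovery at the larger spread of the cellulose synthases was not tested, so these rates cannot be carried over to them. The p-values of the site tests measure the spread between trees. Those of the edgeR tissue tests treat the tissues of a tree as independent libraries, except with the tree as a block. Over the 6 trees, log2 CPM in stems and flowers correlated at r = -0.71 for As_17083, -0.63 for As_12790 and -0.84 for As_14056. With such a negative relation the SE of stem versus flower can understate the spread of the difference within a tree. No sequence of the transcripts was used here.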

Additional observations from a re-analysis of the deposited data

Results flagged for a closer look

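In the 6 stems, the Eq6 library lay far from the others for each of the 3 transcripts, by Dixon's gap test on CPM. Chance meets it in about 1 of 20 groups of normally distributed values, which CPM in stems need not be. It stood at 660 CPM for As_17083, 549 for As_12790 and 471 for As_14056, with gaps of 0.822, 0.793 and 0.859 of the range against a critical value of 0.625. On the log2 scale the gaps were 0.510, 0.477 and 0.565, and none passed. The 3 values come from 1 library and are not independent of each other. No other tissue had such a library among the 9 combinations of transcript and tissue.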

How the results depend on the processing

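Values here are log2 differences in the order named, and calls are transcripts at an adjusted p under 0.05 by the edgeR test, unless DESeq2 is named. Of the recomputed values, 452 kept their direction and their call or, for counts and values without a test, moved by less than the limit set for them, while 18 turned sign, 17 lost their call and 38 moved by more. For the subunit ratios with a tree left out, which had no test, only the size of the change was judged. A turned sign among those ratios is not counted in the 18. With the tree as a replicate block, As_14056 in stem versus flower was 1.31 (adjusted p = 0.102) in place of 1.76, and the site by tissue test had 4 calls in place of 2; the block changed no other call of the 3 transcripts. With DESeq2, the site by tissue test had 60 calls, the site test had 690 calls in stems in place of 78 and 39 in flowers in place of 0, and As_12790 between the sites in flowers was -0.00528 in place of 0.02. The exact test gave 571 site calls in stems and 6 in flowers. The fit over all 18 libraries gave 1 site call in flowers, with As_12790 at -0.00465, and the RLE scaling placed it at -0.00157. With the equatorial trees alone, stem versus flower had 7770 calls in place of 14095 and As_14056 at 2.47, stem versus leaf had 8151 calls in place of 12508, and flower versus leaf was 0.90 for As_17083, 0.92 for As_12790 and 1.65 for As_14056. With the subtropical trees alone, stem versus flower had 7931 calls and values of 1.90, 1.86 and 1.04 for As_17083, As_12790 and As_14056, stem versus leaf had 7247 calls and flower versus leaf 11661 in place of 17593. Without the Eq6 flower library, As_14056 in stem versus flower was 1.55, the site by tissue test had 19 calls, and the site test in flowers had 573 calls with As_12790 at -0.29. Without the Eq6 stem library, an alternative chosen after seeing the data, As_14056 in stem versus flower was 0.61. Adding 2 to each count moved the stem minus leaf ratio of As_12790 over As_14056 from -0.0016 to 0.013, and ranking likeness by Spearman's rho placed 7 of the 16 listed transcripts among the 100 most alike in place of 12.

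Leaving out 1 tree at a time, stem versus flower ranged from 1.09 to 3.03 for As_12790 and from 0.45 to 2.23 for As_14056, with 1 to 3 of the 3 transcripts and 5 to 13 of the 16 listed transcripts called higher, and flower versus leaf ranged from 1.79 to 2.51 for As_12790. The site by tissue test had 0 to 20 calls, and its values ranged from -2.16 to 1.19 for As_17083, from -2.33 to 1.46 for As_12790 and from -2.38 to 1.09 for As_14056. The site test in stems had 0 to 87 calls and ranged from -1.90 to 0.75, from -1.67 to 1.16 and from -2.04 to 0.65 in the same order. The site test in flowers had 0 to 573 calls and ranged from -0.59 to 0.24, from -0.64 to 0.64 and from -0.59 to 0.32. The cause of these differences between settings was not tested. With 3 trees per site the direction of the site differences in stems and flowers turned when single trees were left out, although each of the 3 transcripts had at least 117 counts in every stem and flower library.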
